A study of Saccharomyces cerevisiae with 36 samples.

Results

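The 8 genes described here make and handle acetate and acetyl-CoA in the yeast Saccharomyces cerevisiae. They are the acetyl-CoA synthetase genes ACS1 and ACS2, the CoA transferase gene ACH1, and the aldehyde dehydrogenase genes ALD2, ALD3, ALD4, ALD5 and ALD6. They were picked by name from the gene lines of the deposited count tables, 8 of 7122 lines. The rule uses names alone, but the set was proposed with earlier results of these data known. RNA was sequenced from chemostats, culture vessels in which a steady feed holds the cells at a constant growth rate and a scarce nutrient limits them. There were 36 libraries in 12 groups of 3, stated to be biological triplicates. Under N-lim nitrogen was scarce and the medium held 6% (w/v) glucose, so that scarce nitrogen and plentiful glucose cannot be told apart. Under Et-lim the carbon source was 0.5% ethanol. Under OxGlu-lim oxygen and glucose were scarce together at 1% glucose. Under Glu-lim, the condition the others are set against, glucose was scarce at 0.75%. Every limitation was run in 3 sets of cultures. MC tagged cultures carried HAP1-TAP in vessels marked MC, taken from the series title to be mini-chemostats. DASGIP tagged cultures carried the same strain in a 1 L vessel marked DASGIP. MC untagged cultures carried the unmodified parent, CEN.PK 113-5D, in MC vessels. HAP1-TAP differs from that parent by a CBP-ProtA purification tag on the C-terminus of Hap1p, a regulator that responds to haem and oxygen, and the labels do not say how many clones were used. All cultures were sampled after 48 to 60 h at steady state, and no batch or date is given, so set and batch cannot be told apart.

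Yeast turns ethanol into acetaldehyde, acetaldehyde into acetate with the aldehyde dehydrogenases, and acetate into acetyl-CoA with the acetyl-CoA synthetases, at the cost of ATP. On glucose the same steps, fed by pyruvate decarboxylase, form the bypass around mitochondrial pyruvate dehydrogenase that supplies cytosolic acetyl-CoA for lipids and for acetylation of histones. Ald4 and Ald5 are mitochondrial dehydrogenases, Ald6 is the cytosolic one that uses NADP, and Ald2 and Ald3 are cytosolic enzymes known for stress induction and for making the beta-alanine of pantothenate. ACS1 is known as a gene that glucose represses and ACS2 as the synthetase gene that glucose-grown cells depend on, while Ach1 moves CoA between organic acids in mitochondria.

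The libraries held 10.7 to 22.5 M counted reads, with a median of 16.7 M. Levels are CPM, the counts of a gene relative to library size, with sizes scaled with edgeR's TMM factors, and all 8 genes passed the filter on low counts, with a lowest count of 111 (ALD3). Mitochondrially encoded genes took 9.19% to 16.5% of the reads under N-lim, 31.5% to 46.6% under Et-lim, 16.9% to 25.2% under OxGlu-lim and 25.1% to 38.6% under Glu-lim. In a fit on nuclear reading frames only, which drops these genes and RNAs that are not translated, no difference of the 8 genes turned round. ALD3 gained a call between Et-lim and N-lim (0.39, adjusted p = 0.0404) and between vessels under OxGlu-lim (0.85, 0.0478). Between strains under OxGlu-lim ALD2 gained a call (0.56, 0.0412) and ACS2 lost it (-0.22, 0.0606), and ALD4 gained a call on the difference of its OxGlu-lim response between sets (0.0432). The limitations carried their known marks. The summed level of DAL5, GAP1 and MEP2, which serve nitrogen uptake, was 8779 to 13736 CPM under N-lim and 164 to 626 CPM under Glu-lim. That of ICL1, PCK1 and FBP1, needed for growth on ethanol, was 8369 to 10388 CPM under Et-lim and 257 to 551 CPM under Glu-lim. That of the low-oxygen genes TIR1, DAN1 and ANB1 was 605 to 849 CPM under OxGlu-lim and 7.03 to 12.1 CPM under Glu-lim. Markers of MATa cells summed to 301 to 3098 CPM, those of MATalpha cells to 43.2 to 161 CPM and those of meiosis to 15.7 to 42.9 CPM. A library's distance from the other libraries of its group, as the root mean square of log2 differences over genes, had a median of 0.245. It was largest in MC tagged N-lim replicate 3 (0.463), and MC tagged N-lim replicate 2 (0.375), MC tagged OxGlu-lim replicate 3 (0.373) and DASGIP tagged Et-lim replicate 1 (0.368) came next. Where leaving out 1 of them changed a call or moved a called value by over 1.5 times, both values are given for the differences followed. Differences that were not called and smaller than their SE were followed only between limitations averaged over sets. In bulk RNA, less transcript in each cell and fewer cells that hold it cannot be told apart.

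Against Glu-lim, the acetate genes split by limitation. Averaged over the 3 sets, N-lim lowered 6 of the 8 genes and raised ACS2 and ALD2. Et-lim raised ACS1, ACS2, ACH1 and ALD6, lowered ALD2, ALD3 and ALD5, and left ALD4 without a call. OxGlu-lim raised ACS2, lowered 6 genes and left ALD6 without a call. A call is an adjusted p below 0.05 in edgeR's quasi-likelihood test, fitted over 6612 genes. Of those genes 71.7% were called between N-lim and Glu-lim, 59.3% between Et-lim and Glu-lim and 65.2% between OxGlu-lim and Glu-lim, so that a call in itself sets these 8 genes little apart. The median log2 fold change of the 8 genes was -1.08 under N-lim, 0.44 under Et-lim and -0.83 under OxGlu-lim, beside -0.02, 0.01 and 0.01 over all tested genes. The 3 comparisons share the Glu-lim libraries. Between the other limitations, 5 genes were higher and 1 lower in Et-lim than in N-lim (74.1% of all genes called), 5 higher and 2 lower in OxGlu-lim than in N-lim (71.4% called), and 7 higher and 1 lower in Et-lim than in OxGlu-lim (71.7% called). The span between the highest and the lowest limitation mean was 259-fold for ACS1, 15.3-fold for ALD4, 9.60-fold for ACH1, 7.39-fold for ALD3, 3.71-fold for ALD6, 3.40-fold for ALD2, 2.47-fold for ACS2 and 2.13-fold for ALD5.

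**Figure D1:**
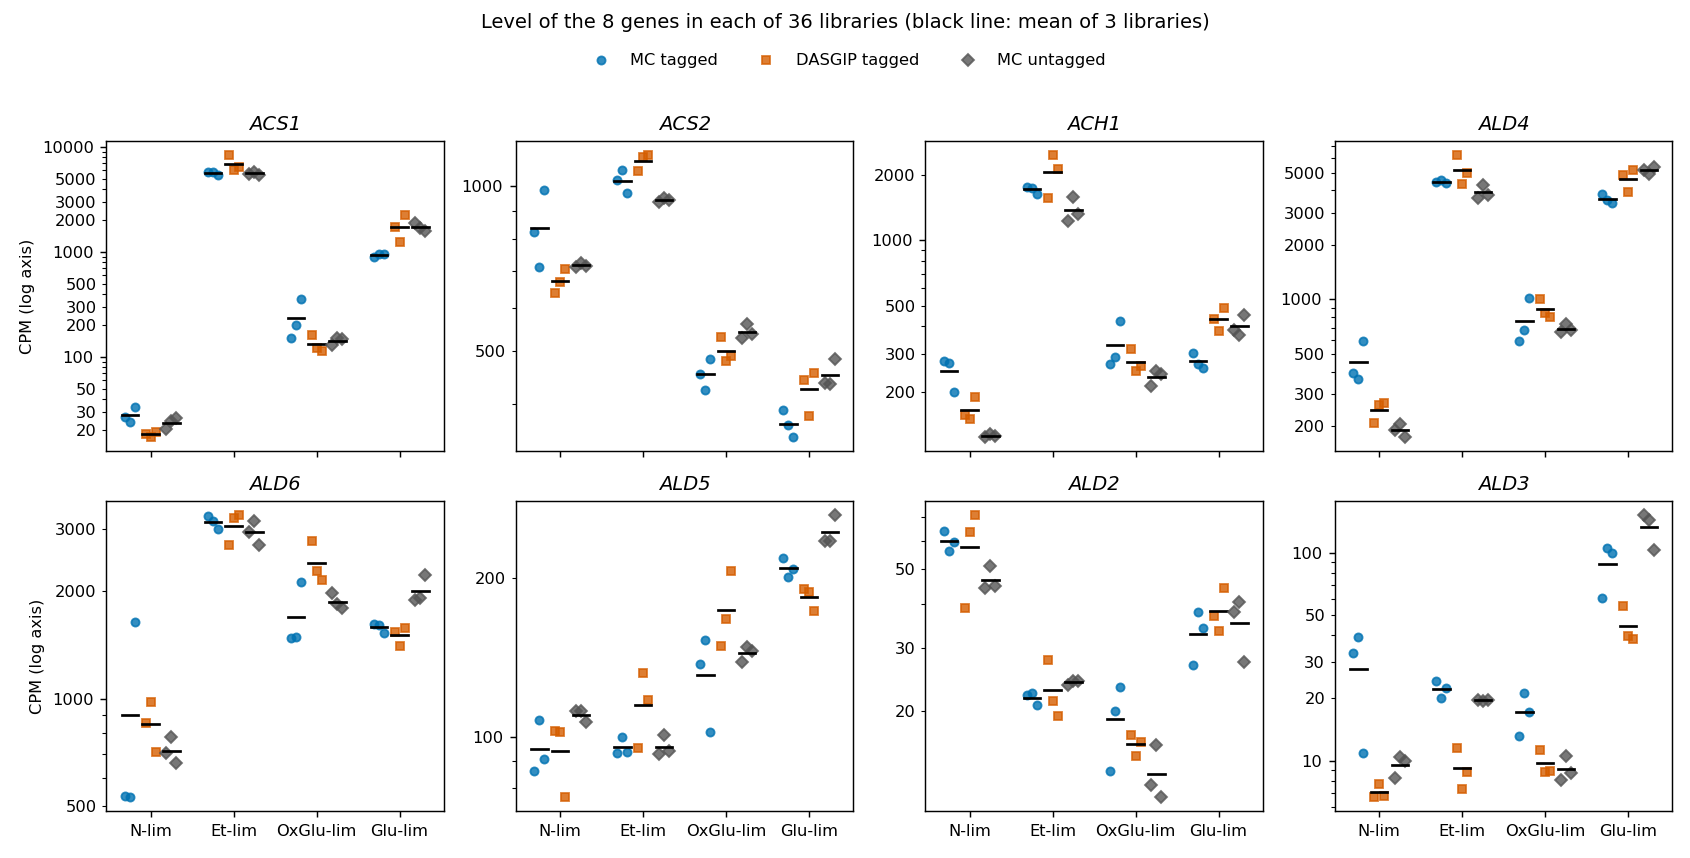
Level of each gene in CPM (log axis) in all 36 libraries, by limitation and set, with a black line at the mean of 3 libraries. ACS1 spans 17.4 CPM under N-lim to 8348 CPM under Et-lim, whereas ALD5 stays between 76.9 and 263 CPM.

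ACS1 (YAL054C, chromosome I, 42881 to 45022, minus strand, build R64), the synthetase gene known for repression by glucose, moved most. It measured 5727, 5797 and 5424 CPM in MC tagged, 8348, 6026 and 6403 CPM in DASGIP tagged, and 5584, 5817 and 5360 CPM in MC untagged cultures under Et-lim. These were its highest levels. Under OxGlu-lim ACS1 measured 153, 201 and 353 CPM in MC tagged, 162, 120 and 114 CPM in DASGIP tagged, and 129, 152 and 147 CPM in MC untagged cultures. Under N-lim it measured 27, 24 and 33.4 CPM, 18.6, 17.4 and 19.2 CPM, and 20.6, 24.4 and 26.2 CPM in the sets in the same order. Under Glu-lim it measured 901, 966 and 965 CPM in MC tagged, 1723, 1238 and 2253 CPM in DASGIP tagged, and 1881, 1708 and 1569 CPM in MC untagged cultures. No library of a limitation overlapped with those of another, and the order was Et-lim, Glu-lim, OxGlu-lim and N-lim, from high to low. Against Glu-lim ACS1 rose 4.26-fold under Et-lim (log2 2.09 ± 0.12, ± being the SE here and below, edgeR adjusted p = 4.5e-15). It fell 8.58-fold under OxGlu-lim (log2 -3.10 ± 0.13, edgeR adjusted p = 3.59e-19) and 61.3-fold under N-lim (log2 -5.94 ± 0.15, edgeR adjusted p = 5.94e-25).

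ACS2 (YLR153C, chromosome XII, 445524 to 447575, minus strand), the synthetase gene that serves growth on glucose, rose under both limitations in which ACS1 fell. Under N-lim ACS2 measured 824, 713 and 982 CPM in MC tagged, 638, 670 and 707 CPM in DASGIP tagged, and 713, 723 and 715 CPM in MC untagged cultures. Under Glu-lim it measured 390, 367 and 349 CPM, 444, 381 and 456 CPM, and 436, 435 and 483 CPM in those sets. All N-lim libraries stood above all Glu-lim libraries, with a rise of 1.79-fold (log2 0.84 ± 0.05, edgeR adjusted p = 3.86e-15). Under OxGlu-lim its 9 libraries ranged over 425 to 560 CPM (median 489), which overlaps with Glu-lim, and the rise was 1.2-fold (log2 0.26 ± 0.05, edgeR adjusted p = 4.25e-05). Under Et-lim they ranged over 935 to 1138 CPM (median 1025), clear of Glu-lim, with a rise of 2.47-fold (log2 1.30 ± 0.05, edgeR adjusted p = 4.81e-19). Et-lim was also called above N-lim (log2 0.47 ± 0.05), though 1 N-lim library reached 982 CPM. On plain library totals, without TMM scaling, that order turned round, with a mean of 822 CPM under Et-lim and 918 CPM under N-lim.

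Per kilobase of coding sequence, the share of ACS1 in the summed level of both synthetases was 2.43% to 3.40% under N-lim, 83.6% to 88.2% under Et-lim, 18.3% to 41.1% under OxGlu-lim and 68.9% to 82.6% under Glu-lim. ACS1 was thus the more abundant transcript in every library of Et-lim and Glu-lim, and ACS2 in every library of N-lim and OxGlu-lim. The summed level of both genes was 320 to 494 CPM per kb under N-lim, 2961 to 4417 under Et-lim, 290 to 401 under OxGlu-lim and 611 to 1274 under Glu-lim, so N-lim and OxGlu-lim overlapped in the sum. These shares and sums are descriptions, with no test. Both coding sequences were 65.4% identical over 2001 aligned bases and shared no run of 50 bases.

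**Figure D2:**
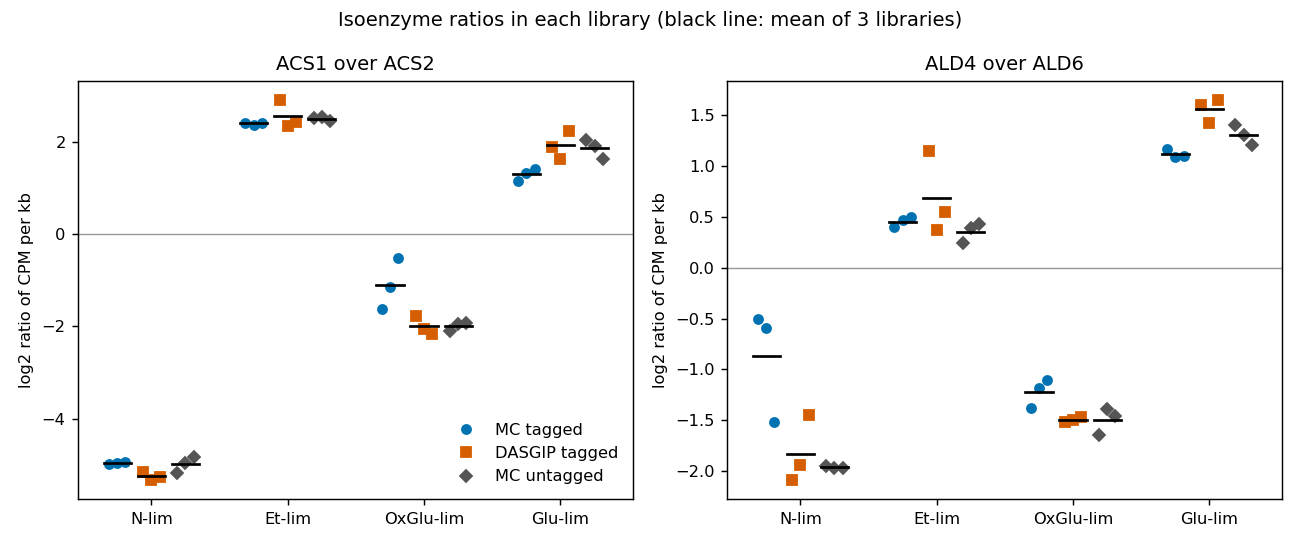
Log2 ratio of the levels per kb in each library, for ACS1 over ACS2 and for ALD4 over ALD6, by limitation and set, with a black line at the mean of 3 libraries. Both ratios lie above 0 in all Et-lim and Glu-lim libraries and below 0 in all N-lim and OxGlu-lim libraries.

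ACH1 (YBL015W, chromosome II, 194122 to 195702, plus strand), the mitochondrial CoA transferase gene, rose under Et-lim. Averaged over sets it fell under the other limitations, but no fall was called in MC tagged cultures. Under Et-lim it measured 1773, 1752 and 1645 CPM in MC tagged, 1578, 2479 and 2133 CPM in DASGIP tagged, and 1235, 1586 and 1325 CPM in MC untagged cultures. Under Glu-lim it measured 303, 268 and 258 CPM, 431, 382 and 489 CPM, and 386, 363 and 451 CPM in those sets, all below every Et-lim library. The rise was 4.68-fold (log2 2.23 ± 0.09, edgeR adjusted p = 2.48e-18). Under N-lim ACH1 measured 276, 270 and 199 CPM in MC tagged, 155, 150 and 189 CPM in DASGIP tagged, and 124, 127 and 125 CPM in MC untagged cultures. Averaged over sets it fell 2.11-fold there (log2 -1.08 ± 0.09, edgeR adjusted p = 9.82e-12), but the MC tagged N-lim libraries overlapped with those of MC tagged Glu-lim. Under OxGlu-lim its libraries ranged over 212 to 423 CPM (median 263) and the fall averaged over sets was 1.32-fold (log2 -0.40 ± 0.09, edgeR adjusted p = 0.000362). Within MC tagged cultures the OxGlu-lim difference was 0.24 ± 0.16 on the log2 scale, without a call (edgeR adjusted p = 0.214).

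ALD4 (YOR374W, chromosome XV, 1039840 to 1041399, plus strand), the main mitochondrial dehydrogenase gene, was high under both Et-lim and Glu-lim. It measured 4462, 4535 and 4387 CPM in MC tagged, 6248, 4313 and 4967 CPM in DASGIP tagged, and 3620, 4294 and 3769 CPM in MC untagged cultures under Et-lim. Under Glu-lim it measured 3797, 3556 and 3406 CPM, 4837, 3924 and 5150 CPM, and 5198, 4921 and 5348 CPM in those sets. The groups overlapped, and the difference was 0.02 ± 0.10 on the log2 scale (edgeR adjusted p = 0.857), which is no evidence that the levels are the same. Within sets it was 0.32 ± 0.17 in MC tagged, 0.16 ± 0.17 in DASGIP tagged and -0.40 ± 0.17 in MC untagged cultures (adjusted p = 0.128, 0.499 and 0.0592), without a call on the difference between sets (0.0689). With only the libraries compared in the fit the MC tagged (0.29, 0.0248) and MC untagged (-0.39, 0.0133) differences were called, the MC untagged one also by DESeq2 (-0.40, 0.0453). On plain library totals the mean was 3643 CPM under Et-lim and 4092 CPM under Glu-lim, against 4511 and 4459 CPM with scaling. Under OxGlu-lim the 9 libraries ranged over 591 to 1024 CPM (median 729), a fall of 5.69-fold (log2 -2.51 ± 0.10, edgeR adjusted p = 3.59e-19). Under N-lim they ranged over 175 to 592 CPM (median 263), a fall of 15.9-fold (log2 -3.99 ± 0.11, edgeR adjusted p = 8.72e-24). The N-lim and OxGlu-lim libraries met only at 592 CPM, in MC tagged N-lim replicate 3, and at 591 CPM, in MC tagged OxGlu-lim replicate 1.

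ALD6 (YPL061W, chromosome XVI, 432588 to 434090, plus strand) encodes the cytosolic dehydrogenase that yields NADPH with acetate. Under Et-lim its 9 libraries ranged over 2695 to 3275 CPM (median 3148), all above the 1407 to 2230 CPM (median 1611) of Glu-lim. The rise was 1.80-fold (log2 0.85 ± 0.14, edgeR adjusted p = 6.72e-06). Within sets it was 0.98 ± 0.24 in MC tagged and 1.02 ± 0.24 in DASGIP tagged cultures on the log2 scale, both called. In MC untagged cultures 0.54 ± 0.24 was not called (edgeR adjusted p = 0.0774), without a call on the difference between sets (0.481). Under OxGlu-lim the 9 libraries ranged over 1478 to 2763 CPM (median 1980), and the log2 difference of 0.22 ± 0.14 from Glu-lim was not called (edgeR adjusted p = 0.167). With only the OxGlu-lim and Glu-lim libraries in the fit it was called, at the same 0.22 (adjusted p = 0.0149). Within DASGIP tagged cultures the OxGlu-lim difference was 0.67 ± 0.24 and called (edgeR adjusted p = 0.0248). It was 0.10 ± 0.24 in MC tagged and -0.10 ± 0.24 in MC untagged cultures, without a call (0.772 and 0.732). The DASGIP tagged call ended in 3 of 6 fits with 1 library left out, and the difference between sets was not called (0.14). Under N-lim ALD6 measured 534, 530 and 1637 CPM in MC tagged, 856, 975 and 709 CPM in DASGIP tagged, and 704, 780 and 659 CPM in MC untagged cultures. The value of 1637 CPM belongs to MC tagged N-lim replicate 3, the library farthest from its group, and lies within the range of Glu-lim. Averaged over sets ALD6 fell 2.07-fold under N-lim (log2 -1.05 ± 0.14, edgeR adjusted p = 1.08e-07), and without that library the change was -1.30.

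Of the summed level per kb of the 5 dehydrogenases, ALD4 held 16.8% to 34.6% under N-lim, 53.1% to 68.0% under Et-lim, 22.9% to 30.4% under OxGlu-lim and 63.8% to 73.1% under Glu-lim. ALD6 held 49.0% to 71.2%, 30.6% to 44.9%, 63.8% to 71.6% and 23.3% to 30.0% in the same order. ALD6 was thus the larger of them in every N-lim and OxGlu-lim library and ALD4 in every Et-lim and Glu-lim library. ALD5, ALD2 and ALD3 made up the rest, with at most 10.4%, 6.26% and 3.59% of a library's sum, in each case under N-lim. The sum itself was 655 to 1573 CPM per kb under N-lim, 4298 to 5893 under Et-lim, 1467 to 2594 under OxGlu-lim and 3421 to 5165 under Glu-lim.

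ALD5 (YER073W, chromosome V, 304030 to 305592, plus strand), the minor mitochondrial dehydrogenase gene, was lower under all 3 other limitations than under Glu-lim, averaged over sets. Over 9 libraries each it measured 76.9 to 112 CPM (median 103) under N-lim, 92.8 to 132 CPM (median 95.2) under Et-lim, 102 to 206 CPM (median 148) under OxGlu-lim and 173 to 263 CPM (median 208) under Glu-lim. Against Glu-lim it fell 2.12-fold under N-lim (log2 -1.09 ± 0.07, edgeR adjusted p = 3.48e-14) and 2.07-fold under Et-lim (log2 -1.05 ± 0.07, edgeR adjusted p = 2.57e-13), with no overlap of libraries in either case. Under OxGlu-lim it fell 1.42-fold (log2 -0.51 ± 0.07, edgeR adjusted p = 3.95e-07), and the libraries overlapped. Within DASGIP tagged cultures no fall was called there (log2 -0.08 ± 0.12, edgeR adjusted p = 0.629). Averaged over sets, Et-lim minus N-lim was not called (log2 0.03 ± 0.07, edgeR adjusted p = 0.691), which is no evidence that the levels are the same. Within DASGIP tagged cultures Et-lim was called higher (log2 0.29 ± 0.13, 0.0492). The differences of 0.01 ± 0.13 in MC tagged and -0.20 ± 0.13 in MC untagged cultures were not called (0.955 and 0.168). On plain library totals the mean was 81.6 CPM under Et-lim and 123 CPM under N-lim, against 102 and 99.6 CPM with scaling. ALD5 and ALD4, both mitochondrial, thus had different calls between Et-lim and Glu-lim, ALD5 lower and ALD4 none, and the difference between the genes was not tested.

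ALD2 (YMR170C, chromosome XIII, 601562 to 603082) and ALD3 (YMR169C, chromosome XIII, 599352 to 600872) stand next to each other on the minus strand with 689 bases between them. Their coding sequences are 91.8% identical (1396 of 1521 bases), with a longest identical run of 329 bases, and 40.4% of all stretches of 50 bases in ALD2 occur in ALD3 too. No source used here gives the read length or the treatment of reads that fit more than 1 gene, so counts may be split between them. Other pairs of these dehydrogenases were 57.7% to 65.2% identical and shared no stretch of 50 bases. The stretch below, coding bases 1450 to 1509 of both genes from the R64 genome of RefSeq, is shown as a stretch in which they differ at many bases, and capitals mark the 21 differing bases.
ALD2, chrXIII:601574-601633, minus strand: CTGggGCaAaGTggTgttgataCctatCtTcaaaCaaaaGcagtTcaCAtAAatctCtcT
ALD3, chrXIII:599364-599423, minus strand: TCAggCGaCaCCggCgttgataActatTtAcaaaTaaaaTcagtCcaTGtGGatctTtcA

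Averaged over sets, the pair had opposite calls between N-lim and Glu-lim. Under N-lim ALD2 measured 63.9, 56.2 and 59.7 CPM in MC tagged, 39.0, 63.5 and 70.9 CPM in DASGIP tagged, and 44.4, 51.0 and 44.8 CPM in MC untagged cultures. Under Glu-lim it measured 26.9, 37.8 and 34.2 CPM, 36.9, 33.5 and 44.4 CPM, and 37.9, 40.5 and 27.4 CPM in those sets. The ranges overlapped between 39.0 and 44.4 CPM, and ALD2 rose 1.54-fold averaged over sets (log2 0.62 ± 0.10, edgeR adjusted p = 4.5e-06). Within sets the change was 0.86 ± 0.18 in MC tagged and 0.59 ± 0.18 in DASGIP tagged cultures (edgeR adjusted p = 0.000179 and 0.00608). In MC untagged cultures 0.41 ± 0.18 was not called (0.0514), but it was with only the libraries compared in the fit (0.41, 0.00611). The DASGIP tagged call ended without DASGIP tagged N-lim replicate 3 (0.42, 0.0650). ALD3 measured 32.8, 39.2 and 10.9 CPM in MC tagged, 6.72, 7.71 and 6.81 CPM in DASGIP tagged, and 8.24, 10.4 and 10.0 CPM in MC untagged cultures under N-lim. Under Glu-lim it measured 60.5, 105 and 99.9 CPM, 55.3, 39.9 and 38.5 CPM, and 151, 144 and 103 CPM in those sets. It fell 6.54-fold (log2 -2.71 ± 0.16, edgeR adjusted p = 2.1e-15), with lower values under N-lim in every set. With the counts of both genes added up, N-lim minus Glu-lim was -0.80, a fall (edgeR adjusted p = 1.05e-07), so the rise of ALD2 holds only as far as the counts tell the pair apart. Within DASGIP tagged cultures the summed fall was not called (-0.36, 0.106), so the same limit applies to the ALD3 fall there.

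Under the other limitations both genes were lower than under Glu-lim. Under Et-lim ALD2 ranged over 19.3 to 27.8 CPM (median 22.4) and ALD3 over 7.31 to 24.1 CPM (median 19.6). ALD2 fell 1.55-fold there (log2 -0.63 ± 0.11, edgeR adjusted p = 1.15e-05) and ALD3 5.07-fold (log2 -2.34 ± 0.16, edgeR adjusted p = 1.73e-13). Under OxGlu-lim ALD2 ranged over 11.5 to 23.3 CPM (median 16) and ALD3 over 8.14 to 21.1 CPM (median 10.5), falls of 2.22-fold (log2 -1.15 ± 0.11, edgeR adjusted p = 2.03e-10) and 7.0-fold (log2 -2.81 ± 0.16, edgeR adjusted p = 2e-15). The log2 ratio of ALD2 to ALD3 per kb was 0.52 to 3.38 under N-lim, -0.12 to 1.54 under Et-lim, -0.07 to 0.88 under OxGlu-lim and -1.99 to 0.20 under Glu-lim. For ALD3 the limitations other than Glu-lim overlapped. Averaged over sets, Et-lim minus N-lim (log2 0.37 ± 0.17, edgeR adjusted p = 0.051) and OxGlu-lim minus N-lim (log2 -0.10 ± 0.17, edgeR adjusted p = 0.613) were not called. The first was called without DASGIP tagged Et-lim replicate 2 (0.42, adjusted p = 0.0348), MC tagged Et-lim replicate 2 (0.39, 0.0490), MC tagged N-lim replicate 1 (0.41, 0.0350) or MC tagged N-lim replicate 2 (0.48, 0.00970). Et-lim minus OxGlu-lim was called (log2 0.47 ± 0.17, edgeR adjusted p = 0.0167), but not without replicate 1 of DASGIP tagged Et-lim or of MC tagged OxGlu-lim (0.40 and 0.38, adjusted p = 0.0513 in both). Within MC tagged, DASGIP tagged and MC untagged cultures Et-lim minus N-lim was log2 -0.31 ± 0.27, 0.38 ± 0.31 and 1.03 ± 0.29. Only the MC untagged value was called (edgeR adjusted p = 0.00316). OxGlu-lim minus N-lim was -0.68 ± 0.27, 0.46 ± 0.31 and -0.07 ± 0.31 in those sets, called in MC tagged cultures only (0.0365). Et-lim minus OxGlu-lim was 0.37 ± 0.28, -0.07 ± 0.31 and 1.10 ± 0.30, called in MC untagged cultures only (0.00209). These values within sets were not followed with libraries left out. ALD3 had a mean of 17.0 CPM under Et-lim and 14.8 CPM under N-lim, and on plain library totals 13.4 and 18.5 CPM, the other way round.

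**Figure D3:**
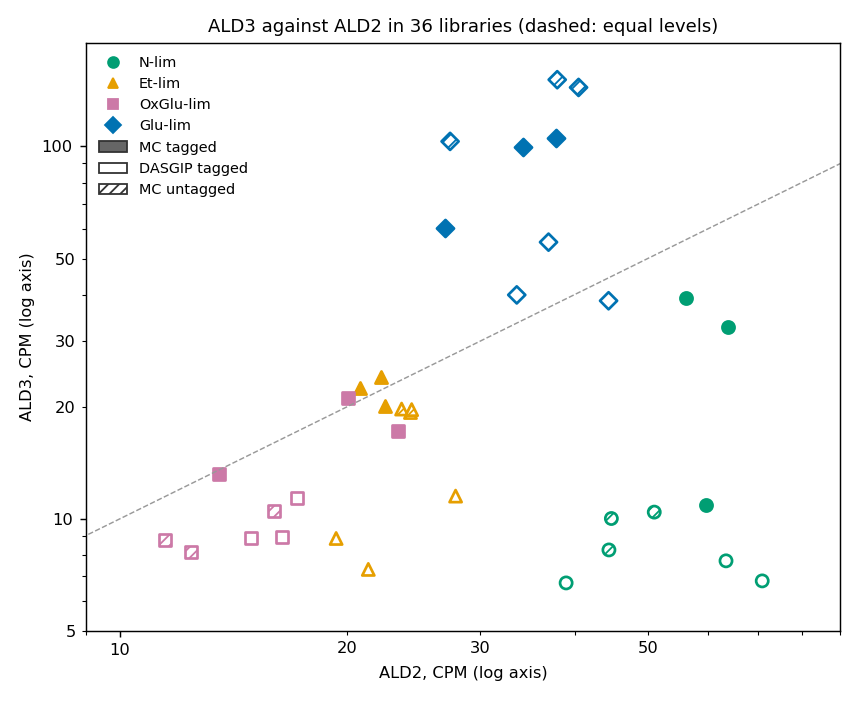
ALD3 against ALD2 in CPM (log axes) in 36 libraries, with colour and shape for the limitation and filling for the set. Glu-lim libraries lie above the dashed line of equal levels, except 1 DASGIP tagged library, and N-lim libraries all lie below it.

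The sequences before the genes were read for motifs in windows of 300 bases ahead of each start codon, in the R64 genome of RefSeq. Shown are the windows of ACS1 and ALD4, the pair of the 8 genes with the highest Pearson's r over group means. Those of the neighbours ALD2 and ALD3, which had opposite calls under N-lim averaged over sets, are shown too. Capitals mark matches on either strand to CCCCT (the stress response element of Msn2 and Msn4), CCAAT (the core bound by the Hap2/3/4/5 complex) and TTGGAG (a core of sites of Adr1), and no matches overlap.
ACS1, chrI:45023-45322, minus strand: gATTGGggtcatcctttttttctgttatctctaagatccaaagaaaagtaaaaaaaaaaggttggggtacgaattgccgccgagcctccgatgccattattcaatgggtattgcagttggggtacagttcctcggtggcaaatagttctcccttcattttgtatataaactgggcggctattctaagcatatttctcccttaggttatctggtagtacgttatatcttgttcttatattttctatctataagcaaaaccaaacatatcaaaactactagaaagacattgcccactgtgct
ALD4, chrXV:1039540-1039839, plus strand: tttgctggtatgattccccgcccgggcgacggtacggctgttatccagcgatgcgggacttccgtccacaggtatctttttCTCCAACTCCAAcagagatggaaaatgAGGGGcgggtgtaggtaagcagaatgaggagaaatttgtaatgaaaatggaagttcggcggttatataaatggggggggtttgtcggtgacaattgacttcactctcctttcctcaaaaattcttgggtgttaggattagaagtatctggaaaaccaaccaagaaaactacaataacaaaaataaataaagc
ALD2, chrXIII:603083-603382, minus strand: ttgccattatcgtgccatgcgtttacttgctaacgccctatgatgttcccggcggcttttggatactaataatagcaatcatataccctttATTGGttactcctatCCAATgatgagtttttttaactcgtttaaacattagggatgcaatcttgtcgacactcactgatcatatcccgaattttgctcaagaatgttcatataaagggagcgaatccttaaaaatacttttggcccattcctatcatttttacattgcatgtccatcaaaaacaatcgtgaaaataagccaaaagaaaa
ALD3, chrXIII:600873-601172, minus strand: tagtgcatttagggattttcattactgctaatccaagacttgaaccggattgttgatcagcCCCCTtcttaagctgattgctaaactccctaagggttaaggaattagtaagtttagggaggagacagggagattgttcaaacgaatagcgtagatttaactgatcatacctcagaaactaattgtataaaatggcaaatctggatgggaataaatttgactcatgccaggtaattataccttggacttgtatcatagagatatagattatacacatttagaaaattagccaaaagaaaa

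CCCCT occurred once each ahead of ALD3, ALD4, ALD5, ALD6 and ACH1, that is in 5 of the 8 windows, and in 22.2% of 6001 windows of the genome. CCAAT occurred ahead of ALD2 (2 matches), ACS1 and ACH1, and in 41.8% of all windows, with 2 or more in 10.2%. TTGGAG had 2 matches ahead of ALD4, with none in the other windows shown or in those of the other 4 genes. Of all windows 10.4% held TTGGAG and 0.683% held it at 2 or more places. The carbon source response element, the site of Cat8 and Sip4, was found in 14 of the 6001 windows (0.233%) and ahead of none of the 8 genes, which says only that this pattern is not within these 300 bases. A match is a description of the letters, and binding was not measured.

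The responses to limitation were not equal in the 3 sets, which an F test asked for each gene (edgeR quasi-likelihood). For N-lim minus Glu-lim 5 of the 8 genes differed between sets, where 41.0% of all genes did. ACH1 changed by -0.15 ± 0.16 in MC tagged (adjusted p = 0.424), -1.40 ± 0.16 in DASGIP tagged and -1.68 ± 0.16 in MC untagged cultures on the log2 scale (adjusted p of the difference 1.47e-05). ALD4 changed by -3.0 ± 0.18, -4.23 ± 0.19 and -4.76 ± 0.20 in those sets (9.14e-06), and ALD3 by -1.68 ± 0.26, -2.65 ± 0.29 and -3.79 ± 0.29 (0.000334). ACS1 changed by -5.07 ± 0.24, -6.56 ± 0.26 and -6.18 ± 0.26 (0.000723), while ACS2 rose by 1.19 ± 0.09, 0.65 ± 0.09 and 0.67 ± 0.09 (0.0014). In ALD4, ALD3 and ACS1 the fall was smallest in MC tagged cultures, and ACS2 rose most there. ALD2, ALD5 and ALD6 had no call on the difference (0.306, 0.616 and 0.163). For ALD6 the difference was called without MC tagged N-lim replicate 3 (adjusted p = 0.00271), and also without replicate 1 (0.0471) or replicate 2 (0.0378) of that group. Within MC tagged cultures ALD6 fell by 0.82 ± 0.24, and the change was -1.58 without replicate 3. The call ended without MC tagged N-lim replicate 1 or 2 (-0.55 in both, 0.0610 and 0.0538), and in the fit of only the libraries compared (-0.81, 0.161). Within a set, 55.2% of all genes were called between N-lim and Glu-lim in MC tagged, 55.8% in DASGIP tagged and 62.3% in MC untagged cultures.

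**Figure D4:**
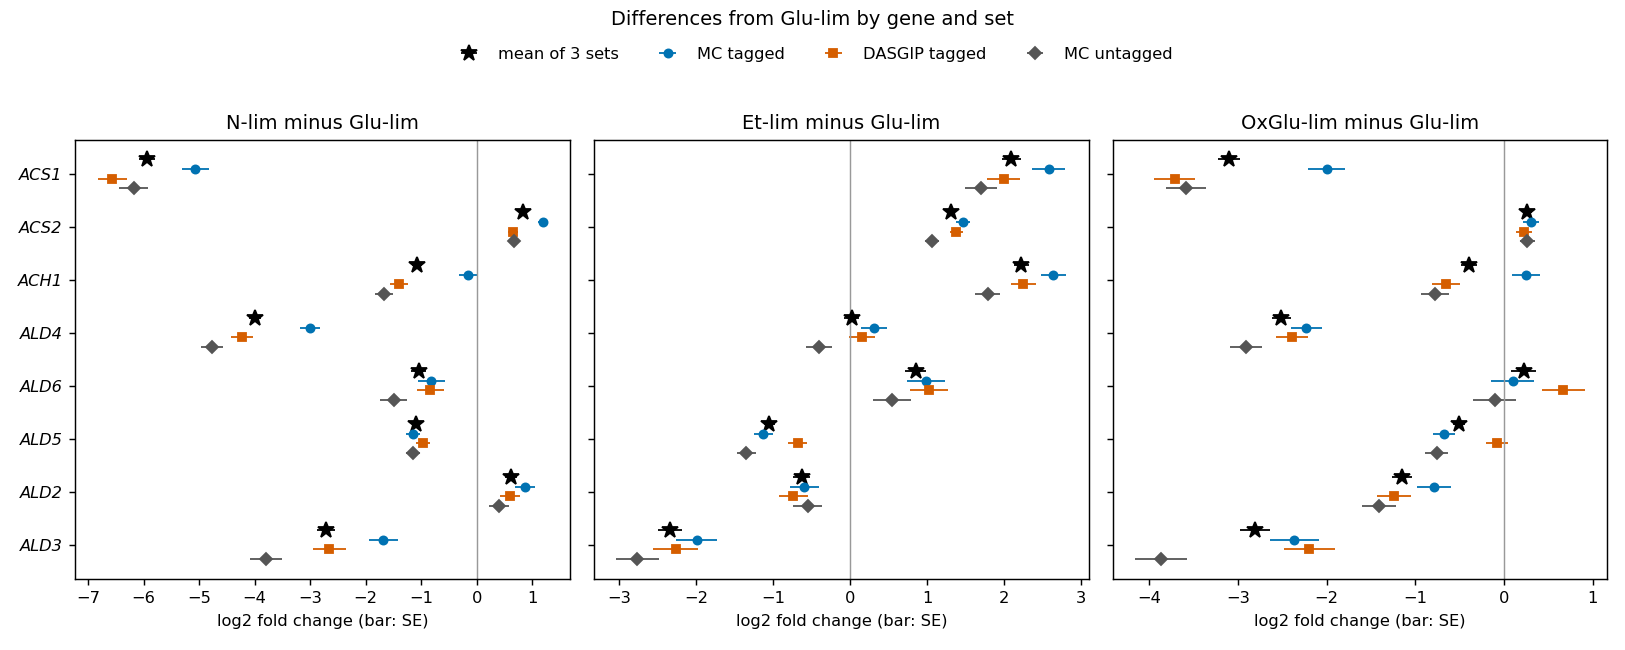
Log2 fold change of each gene against Glu-lim, with bars for the SE, as the mean of 3 sets (star) and in each set. ACH1 under N-lim lies at -0.15 in the MC tagged set and at -1.40 and -1.68 in the others, and the N-lim values of ACS1, ALD4 and ALD3 are nearest to 0 in the MC tagged set.

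For OxGlu-lim minus Glu-lim 4 of the 8 genes differed between sets, beside 40.9% of all genes. ACS1 changed by -2.0 ± 0.21 in MC tagged, -3.72 ± 0.23 in DASGIP tagged and -3.59 ± 0.23 in MC untagged cultures on the log2 scale (adjusted p of the difference 8.52e-05). ACH1 changed by 0.24 ± 0.16 in MC tagged (not called), -0.66 ± 0.16 in DASGIP tagged and -0.78 ± 0.16 in MC untagged cultures (0.00127). ALD3 changed by -2.36 ± 0.27, -2.19 ± 0.29 and -3.87 ± 0.29 in those sets (0.00243). ALD5 changed by -0.68 ± 0.13, -0.08 ± 0.12 (not called) and -0.76 ± 0.13 (0.00537). ALD4 had no call on the difference (0.0523), but gained one with RLE factors (0.0469) or without DASGIP tagged Glu-lim replicate 3 (0.0484), MC tagged OxGlu-lim replicate 1 (0.0203) or replicate 2 of that group (0.0431). ALD2 (0.135) gained one without MC tagged OxGlu-lim replicate 1 (0.0395). Of all genes 45.1% were called within MC tagged, 44.4% within DASGIP tagged and 58.3% within MC untagged cultures.

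For Et-lim minus Glu-lim 3 of the 8 genes differed between sets, beside 14.4% of all genes. ACH1 rose by 2.64 ± 0.17 in MC tagged, 2.25 ± 0.16 in DASGIP tagged and 1.79 ± 0.16 in MC untagged cultures on the log2 scale (adjusted p of the difference 0.0275). ACS2 rose by 1.47 ± 0.09, 1.38 ± 0.09 and 1.06 ± 0.09 in those sets (0.0476), and ALD5 changed by -1.13 ± 0.13, -0.68 ± 0.13 and -1.35 ± 0.13 (0.0272). The ACS2 call ended without any 1 library of these groups other than DASGIP tagged Et-lim replicate 1 and DASGIP tagged Glu-lim replicate 3 (adjusted p up to 0.121), and with RLE factors (0.0548), upper-quartile factors (0.0901) or no filter on low counts (0.0507). That of ACH1 ended without replicate 1 or 2 of MC tagged Et-lim, replicate 2 or 3 of MC tagged Glu-lim, replicate 1 or 3 of MC untagged Et-lim, or replicate 3 of MC untagged Glu-lim (up to 0.0835). That of ALD5 ended without replicate 2 or 3 of DASGIP tagged Et-lim, 3 of DASGIP tagged Glu-lim, 1 or 3 of MC untagged Et-lim, or 3 of MC untagged Glu-lim (up to 0.0803). ACS1 rose by 2.58 ± 0.22, 1.99 ± 0.21 and 1.70 ± 0.21, a difference without a call (0.0737) that was called without DASGIP tagged Et-lim replicate 1 (0.0436) or DASGIP tagged Glu-lim replicate 2 (0.0447). Of all genes 46.6% were called within MC tagged, 32.3% within DASGIP tagged and 37.8% within MC untagged cultures.

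The vessels were compared in the same strain, as MC tagged minus DASGIP tagged. Averaged over the 4 limitations ALD3 alone of the 8 genes was called, 2.39-fold higher in MC tagged cultures (log2 1.26 ± 0.14, edgeR adjusted p = 7.77e-08), where 34.4% of all genes were called. With 1 library left out, 1 to 2 of the 8 genes were called. For ALD3 the libraries did not overlap between the vessels in any limitation. Under N-lim ALD3 was higher by 1.96 ± 0.29, under Et-lim by 1.26 ± 0.29 and under Glu-lim by 0.99 ± 0.25 on the log2 scale (adjusted p = 1.62e-05, 0.0043 and 0.00607), and under OxGlu-lim the difference was 0.82 ± 0.30 (0.0536). With ALD2 and ALD3 added up the differences under N-lim and Et-lim were 0.44 and 0.45, without a call (0.103 and 0.133). Under Et-lim ALD3 measured 20.1 to 24.1 CPM in MC tagged, 7.31 to 11.5 CPM in DASGIP tagged and 19.3 to 19.7 CPM in MC untagged cultures, the last in the same kind of vessel as the first. Under N-lim it measured 10.9 to 39.2 CPM, 6.72 to 7.71 CPM and 8.24 to 10.4 CPM in those sets.

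Within single limitations the vessel difference of 5 genes varied (F test by limitation, 24.1% of all genes called). ACS1 was higher in MC tagged than in DASGIP tagged cultures under N-lim (log2 0.62 ± 0.22, edgeR adjusted p = 0.0464) and OxGlu-lim (0.83 ± 0.21, 0.00534) and lower under Glu-lim (-0.88 ± 0.20, 0.00274), with an adjusted p of 0.000193 for the difference between limitations. ACH1 was higher under N-lim (0.59 ± 0.16, 0.00845) and lower under Glu-lim (-0.65 ± 0.16, 0.00384), with 0.000638 for the difference. ALD4 (0.86 ± 0.17, 0.000565) and ACS2 (0.32 ± 0.09, 0.0101) were higher under N-lim, and ALD5 was lower under OxGlu-lim (-0.41 ± 0.13, 0.0214). The differences between limitations had adjusted p of 0.000981 for ALD4, 0.00651 for ACS2 and 0.041 for ALD5. In all, 5 genes were called higher under N-lim (18.3% of all genes called), 1 higher under Et-lim (11.8%), 1 higher and 2 lower under Glu-lim (21.1%), and 1 higher and 1 lower under OxGlu-lim (17.6%).

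With only the libraries compared in the fit, the N-lim calls between vessels ended for ALD3 (1.97, adjusted p = 0.0552), ALD4 (0.87, 0.0592), ACH1 (0.60, 0.0696) and ACS2 (0.33, 0.193), and the OxGlu-lim calls for ACS1 (0.84, 0.127) and ALD5 (-0.41, 0.199). Several calls also rest on single libraries. Under OxGlu-lim the ACS1 difference was 0.42 (adjusted p = 0.141) and that of ALD5 -0.26 (0.187) without MC tagged OxGlu-lim replicate 3, which held 353 CPM of ACS1 and 102 CPM of ALD5. The ALD5 difference also lost its call without DASGIP tagged OxGlu-lim replicate 3 (-0.27, 0.180), while that of ALD3 gained one without MC tagged OxGlu-lim replicate 1 (0.97, 0.0320). Under Et-lim ALD5 gained a call without DASGIP tagged Et-lim replicate 1 (-0.38, 0.0450). Without MC tagged N-lim replicate 3 the N-lim differences were 0.19 for ACS2 (0.105) and 0.47 for ACS1 (0.168). The ACS2 call also ended without DASGIP tagged N-lim replicate 1 (0.29, 0.0560) and that of ACH1 without DASGIP tagged N-lim replicate 2 (0.53, 0.0507). The ACS1 call under N-lim also ended without MC tagged N-lim replicate 1 or any DASGIP tagged N-lim library (0.0691 to 0.131). ALD6 showed no call on the vessel by limitation (adjusted p = 0.395), but it did without MC tagged N-lim replicate 3 (0.00353), and so did ALD3 (0.118 with that library, 0.00119 without it). Under N-lim the vessel difference of ALD6 was 0.09 ± 0.24 (edgeR adjusted p = 0.846), with 1637 CPM in that replicate. The other MC tagged N-lim libraries held 534 and 530 CPM of ALD6, below the 709 to 975 CPM of DASGIP tagged N-lim. This difference was not followed with libraries left out. The ALD5 difference between limitations lost its call without any 1 Glu-lim library of either tagged set, DASGIP tagged Et-lim replicate 3, DASGIP tagged OxGlu-lim replicate 2 or 3, MC tagged Et-lim replicate 1 or 3, or MC tagged OxGlu-lim replicate 3 (up to 0.0995).

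The strains were compared in MC vessels, as MC tagged minus MC untagged, with the same MC tagged libraries as in the comparison of vessels. Averaged over limitations ACH1 (log2 0.31 ± 0.08, edgeR adjusted p = 0.00602), ALD3 (0.51 ± 0.14, 0.0103) and ALD4 (0.27 ± 0.08, 0.0278) were higher in MC tagged cultures, where 18.1% of all genes were called. With ALD2 and ALD3 summed the averaged strain difference was 0.22, without a call (adjusted p = 0.109). The ALD4 call ended without MC tagged N-lim replicate 3 (0.20, adjusted p = 0.0552), replicate 3 of MC tagged OxGlu-lim (0.20, 0.0683), replicate 3 of MC untagged N-lim (0.25, 0.0516) or replicate 1 of MC untagged Et-lim (0.25, 0.0518). The averages of ACH1 and ALD4 hide called differences of opposite sign, higher under N-lim and lower under Glu-lim. For ALD3 the negative value, under Glu-lim, was not called (log2 -0.58 ± 0.25, edgeR adjusted p = 0.0877). The strain difference varied by limitation for 5 genes (F test, 47.7% of all genes called).

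Under N-lim ALD3 (log2 1.53 ± 0.28, edgeR adjusted p = 0.000189), ALD4 (1.24 ± 0.17, 5.78e-06), ACH1 (0.99 ± 0.16, 3.56e-05) and ACS2 (0.23 ± 0.09, 0.0469) were higher in MC tagged than in MC untagged cultures (32.4% of all genes called). Under Glu-lim ACS1 (-0.86 ± 0.20, 0.00364), ACH1 (-0.53 ± 0.16, 0.0158), ALD4 (-0.52 ± 0.17, 0.0262) and ACS2 (-0.29 ± 0.09, 0.0183) were lower (22.5% called). Under OxGlu-lim ALD3 (0.92 ± 0.30, 0.0241), ACS1 (0.72 ± 0.21, 0.0108) and ACH1 (0.48 ± 0.16, 0.025) were higher and ACS2 (-0.25 ± 0.09, 0.0339) was lower (24.1% called). Under Et-lim none of the 8 genes was called in edgeR's test (18 of 6612 genes, 0.272%). None had an unadjusted p under 0.05 there either, the lowest being 0.0513 for ACH1, and DESeq2, read there for ACH1, ALD4 and ACS2, called none of them. The adjusted p for a difference between limitations was 3.37e-05 for ALD4, 7.34e-05 for ACH1, 0.000411 for ALD3, 0.000722 for ACS1 and 0.00167 for ACS2. Without MC tagged OxGlu-lim replicate 3 the OxGlu-lim differences were 0.31 for ACS1 (0.274) and 0.25 for ACH1 (0.298). Without MC tagged N-lim replicate 3 the N-lim difference was 0.10 for ACS2 (0.380), and that of ALD6 was -0.43 (0.0214) without that library, against 0.33 ± 0.24 (0.297) with it and 0.60 (0.0495) without MC tagged N-lim replicate 2. The ACS2 call under N-lim ended as well without MC tagged replicate 1 or any MC untagged N-lim library (0.0766 to 0.103).

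Calls between strains under Glu-lim and OxGlu-lim were also sensitive to single libraries. Under Glu-lim the ALD4 call ended without any MC tagged library or MC untagged replicate 1 or 3 (adjusted p 0.0509 to 0.0815). That of ACS2 ended without MC tagged replicate 2 or 3 or MC untagged replicate 3 (0.0514 to 0.0827), as did that of ACH1 (0.0541 to 0.0759). Under OxGlu-lim the ALD3 call ended without MC tagged replicate 2 or 3 or MC untagged replicate 1 or 3 (0.0619 to 0.113), and the ACS2 call without MC tagged replicate 1 or 2 or any MC untagged library (0.0596 to 0.132). Those of ACS1 and ACH1 ended without MC untagged replicate 1 (0.65, 0.0615, and 0.42, 0.119). With only the libraries compared in the fit the OxGlu-lim calls ended for ACS1 (0.73, 0.0980), ACH1 (0.49, 0.0834) and ACS2 (-0.25, 0.0843). The ACS2 call under N-lim ended in that fit too (0.23, 0.215). With RLE factors the ACS2 call under OxGlu-lim ended (-0.23, 0.0583), and with upper-quartile factors those of ACS2 (-0.21, 0.0763) and ALD4 (-0.44, 0.0553) under Glu-lim. ALD2 gained a call under OxGlu-lim without MC tagged replicate 1 (0.71, 0.00955) or MC untagged replicate 2 (0.67, 0.0316).

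**Figure D5:**
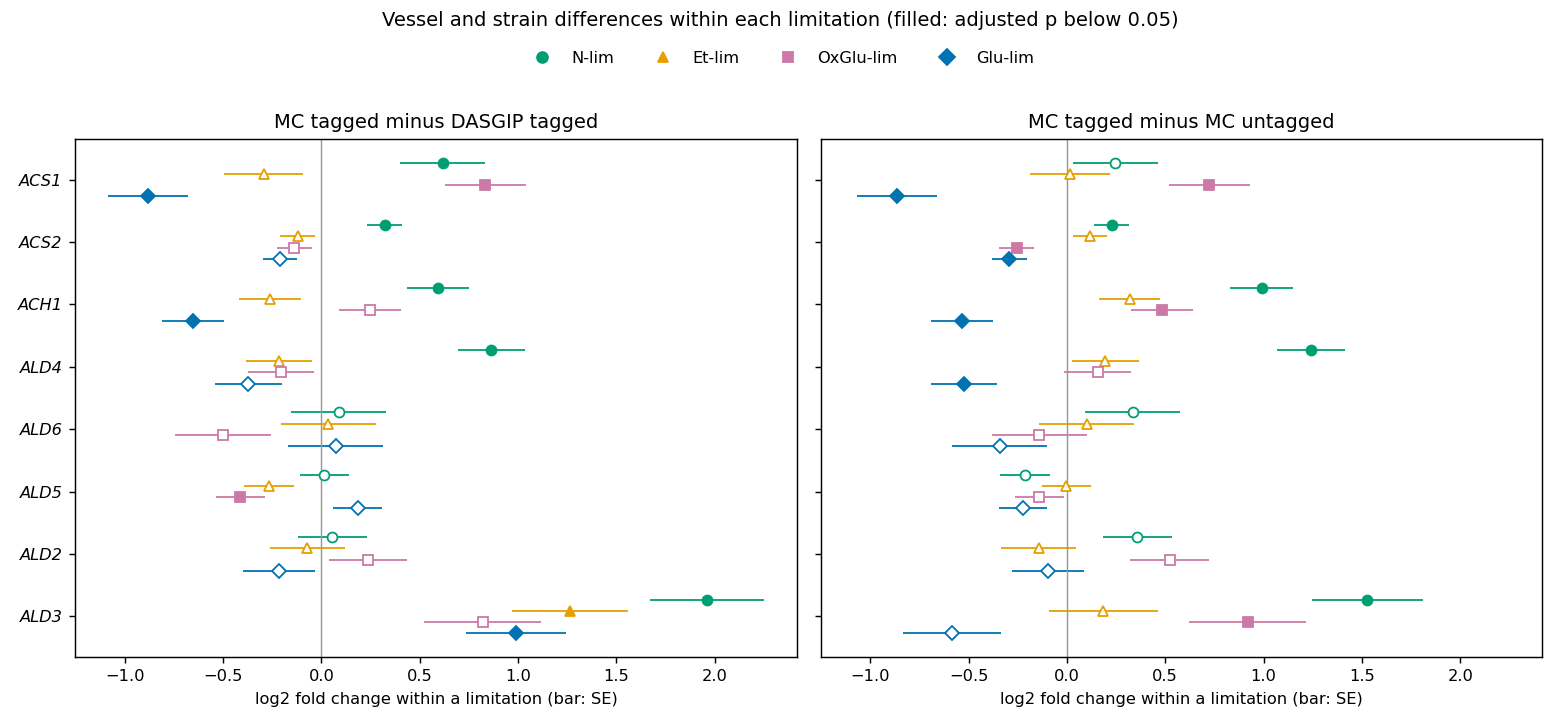
Log2 fold change of each gene between vessels (left) and between strains (right) within each limitation, with bars for the SE and filled points for an adjusted p below 0.05. For ACS1 and ACH1 the Glu-lim points lie below 0 and the N-lim and OxGlu-lim points above 0 in both panels, which share the MC tagged libraries.

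Over the 12 group means of log2 CPM, which share limitations and libraries, ACS1 and ALD4 had the highest Pearson's r of the 8 genes (0.959). By Spearman's rho ACS1 and ACH1 (0.958) ranked above ACS1 and ALD4 (0.895). ACS1 correlated with ACH1 at 0.889 and with ALD6 at 0.855, ALD6 with ACH1 at 0.823, and ALD4 with ALD6 and ACH1 at 0.778 and 0.777. ACS1 with ACS2 gave 0.191, ALD4 with ALD5 0.406 and the tandem pair ALD2 and ALD3 0.222. ACS2 ran against ALD5 (-0.823) and ALD6 against ALD2 (-0.756). Among 5643 genes with a mean of at least 10 CPM, the patterns most like that of ACS1 belonged to ATO3 (0.997), CIT3 (0.995) and YKL187C (0.992), and those most like ALD4 to JEN1 (0.990), PXA2 (0.989) and SPG4 (0.985). ACH1 was nearest to SDH1 (0.996), ODC1 (0.991) and KGD1 (0.988). ALD6 was nearest to IME2 (0.964), MBA1 (0.962) and ARO1 (0.953), and ACS2 to ASM4 (0.954), YPR022C (0.932) and COX9 (0.923). ALD3 was nearest to YGP1 (0.962), ASF2 (0.958) and YBR085C-A (0.957), ALD2 to PCI8 (0.958), PRE3 (0.958) and YIL089W (0.955), and ALD5 to TSA2 (0.939), ERG5 (0.935) and DFG5 (0.927). By rank, with Spearman's rho, 14 of these 24 genes were among the 10 nearest. None of those named for ALD4 or ACH1 was. For ACH1 the ranks were 40 for SDH1, 30.5 for ODC1 and 86 for KGD1. For ALD4 they were 13 for JEN1 and 21.5 for both PXA2 and SPG4. YGP1 and ASF2 ranked 31 and 74.5 for ALD3, YIL089W 14 for ALD2 and COX9 14 for ACS2.

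The steps before acetate moved as follows against Glu-lim, over lists chosen by function. Beside the counts in these lists and those below, 71.7% of all genes were called under N-lim, 59.3% under Et-lim and 65.2% under OxGlu-lim. Of 6612 genes 2266 rose and 2475 fell under N-lim, 2022 and 1896 under Et-lim, and 2175 and 2136 under OxGlu-lim. All 3 pyruvate decarboxylase genes rose under N-lim, led by PDC5 (log2 5.96 ± 0.10) and PDC6 (1.36 ± 0.11), and 1 of 3 rose while 2 fell under both Et-lim and OxGlu-lim. The falls included PDC1 at -1.22 ± 0.07 under Et-lim and PDC6 at -1.34 ± 0.12 under OxGlu-lim. Of 6 alcohol dehydrogenase genes 3 rose and 3 fell under N-lim, 2 and 4 under Et-lim, and 4 and 2 under OxGlu-lim. ADH2, which turns ethanol into acetaldehyde, changed by -7.42 ± 0.13 under N-lim, 1.97 ± 0.10 under Et-lim and -6.56 ± 0.13 under OxGlu-lim, while ADH1, which makes ethanol, changed by 1.06 ± 0.07, -1.58 ± 0.07 and 1.31 ± 0.07. Acetate importers fell in 5 of 5 genes under N-lim and 4 of 5 under OxGlu-lim. Under Et-lim 2 rose, ADY2 at 4.57 ± 0.18 and ATO3 at 1.55 ± 0.11, and FPS1 fell (-0.20 ± 0.04). ADY2 changed by -5.54 ± 0.21 under N-lim and -4.01 ± 0.19 under OxGlu-lim, and JEN1, a lactate and acetate importer, by -5.99 ± 0.19 and -3.52 ± 0.17.

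On the side of acetyl-CoA use, all 5 genes of the carnitine shuttle, which carries acetyl units into mitochondria, rose under Et-lim, led by CRC1 (log2 3.56 ± 0.12) and YAT1 (3.51 ± 0.16). All 5 fell under N-lim, led by CAT2 (-2.72 ± 0.12) and YAT2 (-2.72 ± 0.12), and 4 fell under OxGlu-lim, led by CAT2 (-1.58 ± 0.12) and YAT2 (-1.36 ± 0.12). Of 8 genes of enzymes that use acetyl-CoA, 5 rose and 2 fell under Et-lim, 4 rose and 3 fell under N-lim, and 3 rose and 2 fell under OxGlu-lim. MLS1, malate synthase, rose by 4.28 ± 0.09 and CIT2, peroxisomal citrate synthase, by 3.56 ± 0.10 under Et-lim. CIT2 rose by 2.60 ± 0.10 under OxGlu-lim, where MLS1 fell by 3.51 ± 0.10, and CIT3, a mitochondrial citrate synthase, fell by 4.25 ± 0.12 under N-lim, where DAL7, another malate synthase, rose by 3.05 ± 0.08. Of 8 genes of the pyruvate dehydrogenase complex and of pyruvate entry 6 rose and 0 fell under Et-lim, 1 rose and 4 fell under N-lim, and 1 rose and 3 fell under OxGlu-lim, with MPC3, a mitochondrial pyruvate carrier subunit, at 1.25 ± 0.19 under Et-lim and -2.47 ± 0.21 under N-lim. Median log2 fold changes under N-lim, Et-lim and OxGlu-lim were -5.51, -0.14 and -3.02 for acetate import, -2.39, 2.81 and -0.62 for the carnitine shuttle, 0.13, 0.95 and 0.08 for acetyl-CoA use, and -0.12, 0.25 and -0.06 for the pyruvate dehydrogenase list.

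Genes whose products overlap with Ald6, Ald2 and Ald3 in function were read in the same way. Of 11 other sources of NADPH 8 fell and 2 rose under N-lim, 6 fell and 4 rose under Et-lim, and 8 fell and 2 rose under OxGlu-lim. IDP2, the cytosolic isocitrate dehydrogenase that yields NADPH, changed by -3.82 ± 0.10, 1.79 ± 0.09 and -3.87 ± 0.10 under those limitations, and GND2, a phosphogluconate dehydrogenase gene, by -3.53 ± 0.20, -1.91 ± 0.18 and -3.26 ± 0.19. Of 6 genes of the route through beta-alanine to pantothenate and CoA 5 fell and 1 rose under N-lim, 3 fell and 2 rose under Et-lim, and 3 fell and 1 rose under OxGlu-lim. FMS1, the polyamine oxidase that makes the substrate of Ald2 and Ald3, was among the falls, with changes of -0.35 ± 0.06, -0.19 ± 0.06 and -0.24 ± 0.06. Of 5 other aldehyde dehydrogenase family genes 4 fell and 1 rose under N-lim, 3 fell and 2 rose under Et-lim, and 4 fell and 1 rose under OxGlu-lim, with PUT2, of proline breakdown, at 1.51 ± 0.05 under N-lim and HFD1 at -1.28 ± 0.08 under OxGlu-lim.

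Of 13 regulators of acetate, ethanol and stress genes, 6 rose and 6 fell under N-lim, 6 rose and 3 fell under Et-lim, and 3 rose and 4 fell under OxGlu-lim. The share of all genes called was 71.7%, 59.3% and 65.2% under those limitations. SIP4, an activator of gluconeogenic genes, changed by -3.53 ± 0.07 under N-lim, 2.13 ± 0.07 under Et-lim and -2.54 ± 0.07 under OxGlu-lim on the log2 scale, the same signs as ACS1. ADR1, an activator of ADH2 and ACS1, changed by -1.55 ± 0.08, 0.99 ± 0.08 and -0.19 ± 0.08. MIG1, a glucose repressor, changed by 0.66 ± 0.07, -1.22 ± 0.08 and 0.43 ± 0.08, and MSN4, a stress activator, by 2.29 ± 0.06, -0.28 ± 0.06 and 1.23 ± 0.06. These are transcript levels of the regulators, and their activity was not measured.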

How the data were processed

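RNA was extracted with the RNeasy kit and libraries were made with the TruSeq Stranded Total RNA kit after Ribo-Zero, per the labels' protocols. The values used are raw counts per gene as deposited by the authors, and the submitters' processing notes name Bowtie2, SAMtools, bedtools and build R64. No source used here gives the counting rule, strand setting or read length. R64 is the S288C genome, so reads of CEN.PK 113-5D cells were set against another strain's sequence. Another 60 columns of per-sample values were not used.

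Counts of all 36 libraries were fitted in 1 model of 12 groups with edgeR 4.0.16 (R 4.3.3), with TMM scaling, filterByExpr, the quasi-likelihood F test on 24 residual degrees of freedom and Benjamini-Hochberg adjustment over 6612 genes. The SE is the size of the log2 fold change divided by the square root of F. Fold changes averaged over sets or limitations weight these equally. The members and lists were chosen with earlier results of these data known. Genes of other lists are named as the largest called rises and falls, at most 2 each per list and limitation, with a few more for the same gene across limitations. Likeness is Pearson's r over group means of log2 CPM with a prior count of 2. Alternatives were RLE and upper-quartile scaling, other filters, nuclear reading frames only, DESeq2 1.42.0, fits of only the libraries compared, ALD2 and ALD3 summed, a replicate block, and leaving out each library. Leaving out MC tagged N-lim replicate 3 and MC tagged OxGlu-lim replicate 3 together was chosen after seeing the data. Sequences came from the RefSeq copy of R64, read with Biopython 1.88.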

Additional observations from a re-analysis of the deposited data

Results flagged for a closer look

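For 22 results a test of the difference itself (edgeR quasi-likelihood F test, adjusted over 6612 genes) found that an effect was not the same in all groups. Each result takes in 3 libraries a group. The vessel difference, MC tagged minus DASGIP tagged, varied between limitations for ACS1 (adjusted p = 0.000193), ACH1 (0.000638), ALD4 (0.000981), ACS2 (0.00651) and ALD5 (0.041). The strain difference, MC tagged minus MC untagged, varied between limitations for ALD4 (3.37e-05), ACH1 (7.34e-05), ALD3 (0.000411), ACS1 (0.000722) and ACS2 (0.00167). The response to N-lim varied between the 3 sets for ALD4 (9.14e-06), ACH1 (1.47e-05), ALD3 (0.000334), ACS1 (0.000723) and ACS2 (0.0014). The response to OxGlu-lim varied for ACS1 (8.52e-05), ACH1 (0.00127), ALD3 (0.00243) and ALD5 (0.00537), and that to Et-lim for ALD5 (0.0272), ACH1 (0.0275) and ACS2 (0.0476). With 1 library left out, the Et-lim calls ended in 6 of 18 fits for ALD5, 7 of 18 for ACH1 and 16 of 18 for ACS2. That of ALD5 on the vessel difference ended in 12 of 24. All these tests share the MC tagged and the Glu-lim libraries, so they are not independent of each other. The share of all genes called was 24.1% for the vessel difference and 47.7% for the strain difference. It was 41.0% for the response to N-lim, 40.9% for that to OxGlu-lim and 14.4% for that to Et-lim.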

How the results depend on the processing

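Of 48 differences between limitations averaged over sets, 435 values under other settings kept direction and call, 7 gained a call and 2 reversed. With 1 library left out 852 kept both, 4 gained and 2 lost a call, and 6 reversed, these 6 without a call with or without the library. Of 50 vessel or strain differences within a limitation, 27 changed their call or sign under some setting and 19 with a library left out. These 50 were called or at least as large as their SE, and smaller ones without a call were not followed. With ALD2 and ALD3 summed, N-lim minus Glu-lim was -0.80 (0.62 for ALD2 alone), and -0.47, -0.36 and -1.58 within MC tagged, DASGIP tagged and MC untagged cultures. The DASGIP tagged value was not called (edgeR adjusted p = 0.106). Summed, Et-lim minus N-lim was -0.79 (0.37 for ALD3 alone) and the vessel difference under Glu-lim 0.55. Without MC tagged N-lim replicate 3 and MC tagged OxGlu-lim replicate 3, the strain difference was -0.43 for ALD6 under N-lim and 0.01 for ALD5 under OxGlu-lim, 2 of the 8 genes were called between vessels (1 with them), and 1588 genes differed between sets in their response to Et-lim (954 with them). The cause was not tested. With single libraries left out, the ranges were -0.23 to 0.01 for ALD3 between OxGlu-lim and N-lim, -0.03 to 0.06 for ALD4 between Et-lim and Glu-lim, and -0.01 to 0.07 for ALD5 between Et-lim and N-lim. They were -0.27 to 0.01 for ALD5 between strains under OxGlu-lim, -0.43 to 0.60 for ALD6 between strains under N-lim, 1 to 2 genes of the 8 called between vessels, and 530 to 1438 genes differing between sets under Et-lim. On plain totals 62 of 96 group means of CPM moved by 1 SD or more. DESeq2 and fits of only the libraries compared were not run for the tests of varying differences.

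Same replicate numbers did not pair the libraries. Over 198 pairs of same-numbered libraries the median correlation of deviations was -0.009 (-0.358 to 0.293), 33 were above 0.1, and 9 of 36 libraries correlated best with their own number. With the replicate block ALD3 gained a call between Et-lim and N-lim (0.38, edgeR adjusted p = 0.0403), and the block changed no other call of the 8 genes. Counting error weighs most on ALD3, which had the lowest count, 111.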
